A study of Mus musculus with 10 samples.

Results

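Ribosome biogenesis and nucleolar genes were followed in total RNA from mouse embryonic stem cells with mutated isoforms of Mbd3, a subunit of the NuRD complex, which remodels nucleosomes and removes histone acetyl groups. Members were chosen by symbol, as the deposited tables spell it: the numbered Nop, Utp, Nol, Rrp, Gnl, Tsr, Npm and Pop series, every Exosc gene, and single genes of the same machinery such as Ncl, Fbl, Dkc1, Nhp2, Gar1, Bop1, Pes1, Nip7, Nat10 and Heatr1. Of 8694 gene symbols listed in any of 4 deposited tables, 53 matched. RefSeq names 82 protein-coding mouse genes of this form. The other 29, among them Fbl, Nop56, Nop10, Bms1 and Wdr43, were listed in no table under a matching symbol and have no value here. Nop53 is 1 of these, listed under its older symbol Gltscr2, which the rule does not match.

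Every group held 2 libraries from lines of E14, a mouse embryonic stem cell line, grown on gelatin. Wild type E14 (WT) was the shared control. By their names, isoforms a and b of Mbd3 were knocked out in Mbd3ab KO, c in Mbd3c KO, and a, b and c in Mbd3abc KO. Mbd3cΔN-ab KO is named for an N-terminal deletion in isoform c with loss of a and b. Mbd3ab KO and Mbd3cΔN-ab KO carried CRISPR/Cas9 mutations in exon 2 of Mbd3, Mbd3c KO in intron 2 and Mbd3abc KO in exon 5. The names, not the exon, tell the 2 exon 2 groups apart, and the labels name no other allele or agent. The labels call the libraries biological replicates, but no source used here says whether they came from separate cultures or clones, and codes in the column names, which differ between the 2 libraries of each mutant, are not explained there. P-values therefore measure the spread between these libraries, which may be technical. Each deposited table compares 1 mutant with the same 2 WT libraries and lists called genes only, so the comparisons are not independent of each other and a gene absent from a table has no level there.

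Ribosomes are assembled in the nucleolus, where RNA polymerase I transcribes the large precursor of ribosomal RNA. Small nucleolar RNPs of the C/D and H/ACA classes guide methylation and pseudouridylation of that precursor, the small subunit processome folds and cleaves it, assembly factors build the large subunit, and the RNA exosome and RNase MRP trim and cut it. Fast-dividing embryonic stem cells make many ribosomes, and Myc proteins are known activators of genes of this machinery through the E-box CACGTG.

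The embryonic stem cell genes Pou5f1 and Esrrb were abundant in WT, at 11258 ± 552 and 11975 ± 323 normalized reads in the Mbd3abc KO table (SD, n = 2). Mbd3 RNA was 2.61-fold lower in Mbd3ab KO, 13.0-fold lower in Mbd3abc KO and 5.57-fold lower in Mbd3cΔN-ab KO, and it was not listed in Mbd3c KO. Of 8 markers of embryonic stem cells, 5 were called in Mbd3abc KO, 2 higher and 3 lower, and 3 in Mbd3cΔN-ab KO, 1 higher and 2 lower. In Mbd3abc KO Pou5f1 fell 3.02-fold, Esrrb 1.89-fold and Tfcp2l1 1.46-fold, while Klf4 rose 1.95-fold and Sox2 1.40-fold. In Mbd3cΔN-ab KO Pou5f1 fell 2.04-fold and Esrrb 1.57-fold, while Klf4 rose 1.35-fold. Of 6 trophectoderm markers, 3 were higher in Mbd3abc KO, with Eomes at 6.47-fold, and in Mbd3cΔN-ab KO 2 were higher and 1 lower. In Mbd3ab KO 3 were higher, Eomes at 2.54-fold, Krt8 at 2.94-fold and Krt18 at 2.59-fold. In Mbd3c KO 1 was higher, Krt18, at 3.42-fold. Of 5 neuroectoderm markers 4 were lower and 0 higher in both Mbd3abc KO and Mbd3cΔN-ab KO. In Mbd3abc KO Sox21 fell 6.01-fold, Tubb3 2.16-fold and Nes 2.10-fold, and Pax6 went from 18.2 ± 1.54 normalized reads to 0 in both libraries. Of 7 fibroblast markers 1 was higher, Thy1, at 3.27-fold, and 1 lower in Mbd3abc KO, and 1 was higher and 2 lower in Mbd3cΔN-ab KO. Of 6 endoderm markers 1 was called, Dab2, 4.93-fold higher in Mbd3abc KO. In bulk RNA fewer cells of a type and less RNA per cell cannot be told apart, and the part of these markers in the results below was not tested. Reads behind a member ranged from 68 to 33495 per library in the tables of Mbd3abc KO and Mbd3cΔN-ab KO, whose libraries differed up to 1.58-fold in size factor.

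In Mbd3abc KO, 48 members were called by the authors' DESeq2 test at an adjusted p under 0.05, 19 higher and 29 lower than WT. They were 58.5% of the 82 RefSeq genes, while 52.1% of all genes tested were called, 27.1% higher and 24.9% lower. The median log2 ratio of group means was -0.62 for the called members and 0.47 for all called genes, and 39.6% of called members were higher against 52.1% of all called genes. In Mbd3cΔN-ab KO, 42 members were called, 12 higher and 30 lower, 51.2% of the RefSeq genes beside 41.5% of all genes tested, of which 21.1% were higher and 20.4% lower. There the median log2 ratio was -0.59 for called members and 0.38 for all called genes, with 28.6% and 50.9% higher. Changes of at least 2-fold were seen in 21 called members of Mbd3abc KO (43.8%, against 61.7% of all called genes) and in 14 of Mbd3cΔN-ab KO (33.3%, against 45.7%). Called members were more abundant than all called genes. Their median mean level was 998 normalized reads against 334 in Mbd3abc KO, and 955 against 368 in Mbd3cΔN-ab KO. The part of level in these shares was not tested. How many of the 82 RefSeq genes were among the genes tested is not known. Both libraries of the mutant lay outside the WT range for every called member, as they did for every called gene of these tables. In DESeq2 refits without 1 library, which left 1 library in a group, fewer members stayed past the threshold in both mutants. Calls fell among all listed genes of these tables too. No member changed sign in any refit of these tables. How many of all called genes kept their calls in every refit was not counted, so the members named next are not set apart from other genes. In Mbd3abc KO the calls of 8 higher members (Nol8, Dkc1, Nol4l, Nol7, Nop58, Ncl, Npm1 and Gnl3) and 15 lower ones (Exosc5, Rrp7a, Wdr74, Rrp12, Rrp9, Bop1, Exosc4, Gnl1, Pes1, Nop9, Nol6, Heatr1, Imp4, Nat10 and Nop2) stood in each limma, edgeR and DESeq2 refit and without each library in turn. In Mbd3cΔN-ab KO the same held for Nol8 and Dkc1 among the higher and for 10 lower members (Exosc5, Rrp9, Wdr74, Bop1, Rrp7a, Rrp12, Gnl1, Nop9, Nol6 and Pes1), and the other calls were lost in at least 1 of these fits.

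**Figure D1:**
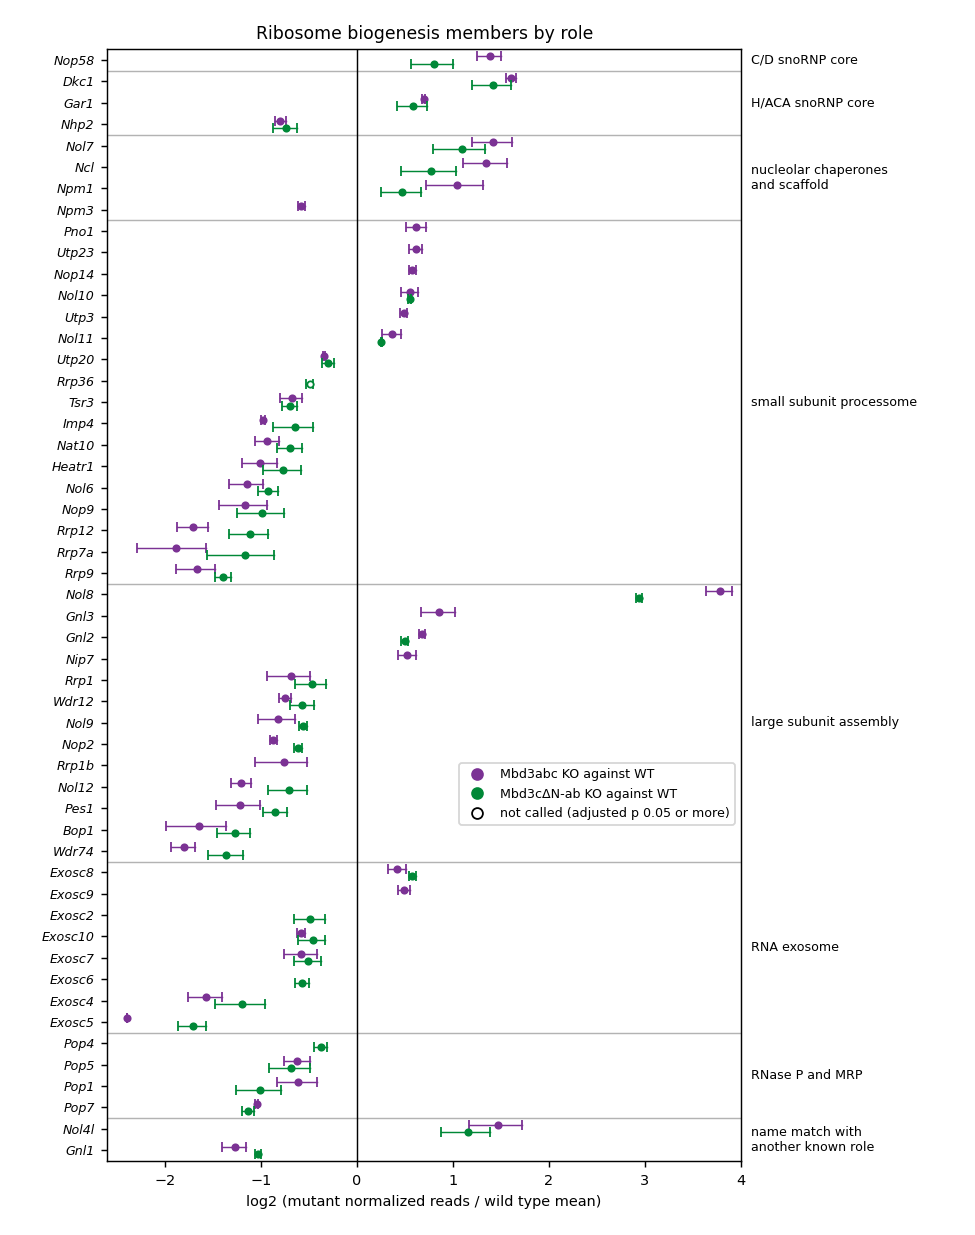
Log2 ratio of normalized reads over the WT mean for every member listed in the Mbd3abc KO (purple) or Mbd3cΔN-ab KO (green) table, grouped by role. Points are the ratio of group means and bars span the 2 mutant libraries; most processome, large subunit, exosome and RNase P members lie left of 0, and Nol8 lies farthest right.

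The promoters of Exosc5, Nop2, Imp4 and Nol11 are shown as examples of the Myc E-box upstream of the start site, in 3 members that were lower and 1, Nol11, that was higher in Mbd3abc KO. The sequences are from RefSeq on GRCm38.p6, which is mm10, read 5′ to 3′ on the gene's strand. Capitals mark CACGTG, which reads the same on both strands and was the only motif searched.
Exosc5, chr7:25659049-25659152, plus strand: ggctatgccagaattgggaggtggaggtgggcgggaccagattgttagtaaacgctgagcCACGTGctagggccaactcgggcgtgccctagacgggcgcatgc
Nop2, chr6:125131763-125131882, plus strand: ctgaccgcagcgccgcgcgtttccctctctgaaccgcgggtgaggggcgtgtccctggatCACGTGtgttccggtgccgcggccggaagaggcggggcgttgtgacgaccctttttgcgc
Imp4, chr1:34439648-34439773, plus strand: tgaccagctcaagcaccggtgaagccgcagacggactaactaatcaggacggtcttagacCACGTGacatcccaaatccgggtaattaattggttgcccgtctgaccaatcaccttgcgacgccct
Nol11, chr11:107189382-107189484, minus strand: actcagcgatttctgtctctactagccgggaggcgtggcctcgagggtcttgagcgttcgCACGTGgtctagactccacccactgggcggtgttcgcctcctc
The first base of the motif lies 44 bases before the start in Exosc5, 60 in Nop2, 121 in Imp4 and 43 in Nol11. In Rrp7a, not shown, it lies 208 bases before the start, and in Pes1, Pno1 and Utp20, not shown, it lies after the start. Of the 53 members, 43 had a promoter in the RefSeq table, and 8 of these (18.6%) held CACGTG between 250 bases before and 50 after the start: Exosc5, Imp4, Nol11, Nop2, Pes1, Pno1, Rrp7a and Utp20. Over all promoters there, 32851 in number, 7.15% held it. Among members higher in Mbd3abc KO 2 of 15 held it (13.3%) and among those lower 6 of 23 (26.1%), beside 10.2% and 11.02% of all called genes in those directions. In Mbd3cΔN-ab KO the shares were 1 of 10 (10%) and 6 of 24 (25.0%), beside 10.4% and 11.4%. These matches are a description of letters in the window, not of binding.

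The listed core proteins of small nucleolar RNPs rose in Mbd3abc KO and Mbd3cΔN-ab KO, except Nhp2, which fell. Nop58, a core protein of C/D particles (chromosome 1, 59685006 to 59711510 of mm10, plus strand), had 1277 and 1286 normalized reads in WT and 3057 and 3633 in Mbd3abc KO, a 2.61-fold rise. The authors' deposited log2 fold change was 1.37 ± 0.15 (SE), with a DESeq2 adjusted p of 4.05e-18. In the Mbd3cΔN-ab KO table it went from 1212 and 1229 to 1807 and 2441, 1.74-fold. Both mutants lay above WT, and their 2 libraries were farther apart than those of WT.

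Dkc1, the pseudouridine synthase of H/ACA particles and part of telomerase (chromosome X, 75095854 to 75109776), rose from 631 and 795 normalized reads to 2095 and 2248 in Mbd3abc KO, 3.05-fold. In Mbd3cΔN-ab KO it rose from 599 and 760 to 1559 and 2066, 2.67-fold (deposited DESeq2 adjusted p = 6.51e-17 and 5.71e-08). Gar1, another H/ACA protein, rose 1.62-fold, from 296 and 333 to 505 and 513, and 1.5-fold in Mbd3cΔN-ab KO, from 281 and 318 to 497 and 401.5. Nhp2, the RNA-binding H/ACA protein, moved the other way. It fell from 1550 and 1887 to 948 and 1027 in Mbd3abc KO, 1.74-fold lower, and from 1471 and 1803 to 896 and 1064 in Mbd3cΔN-ab KO, 1.67-fold lower. Proteins of 1 particle were thus called in opposite directions within each mutant.

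The abundant nucleolar chaperones rose. Ncl, nucleolin, a major nucleolar RNA-binding protein (chromosome 1, 86344719 to 86359455, minus strand), went from 8228 and 8870 normalized reads to 18344 and 25208 in Mbd3abc KO, 2.55-fold. In Mbd3cΔN-ab KO it went from 7809 and 8477 to 11233 and 16626, 1.71-fold. Npm1, nucleophosmin, the histone and ribosome chaperone (chromosome 11, 33152498 to 33163206), was the member with the highest WT level per length, at 9141 normalized reads per kilobase. It rose 2.06-fold in Mbd3abc KO, from 12353 and 13405 to 21181 and 31954 (deposited log2 fold change 1.01 ± 0.25 SE, DESeq2 adjusted p = 0.000242). In Mbd3cΔN-ab KO the rise was 1.39-fold with an adjusted p of 0.0499, just inside the threshold, and limma and edgeR refits did not call it. Npm1 has many processed pseudogenes that can share its reads, so its level is uncertain. Nol7, a nucleolar protein of low level, at 71.2 normalized reads per kilobase in WT, rose from 130 and 126 to 392 and 295 in Mbd3abc KO and from 123 and 121 to 212 and 308 in Mbd3cΔN-ab KO. Npm3, a nucleophosmin relative, fell 1.49-fold in Mbd3abc KO, from 891 and 958 to 604 and 633, and was not listed in Mbd3cΔN-ab KO.

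**Figure D2:**
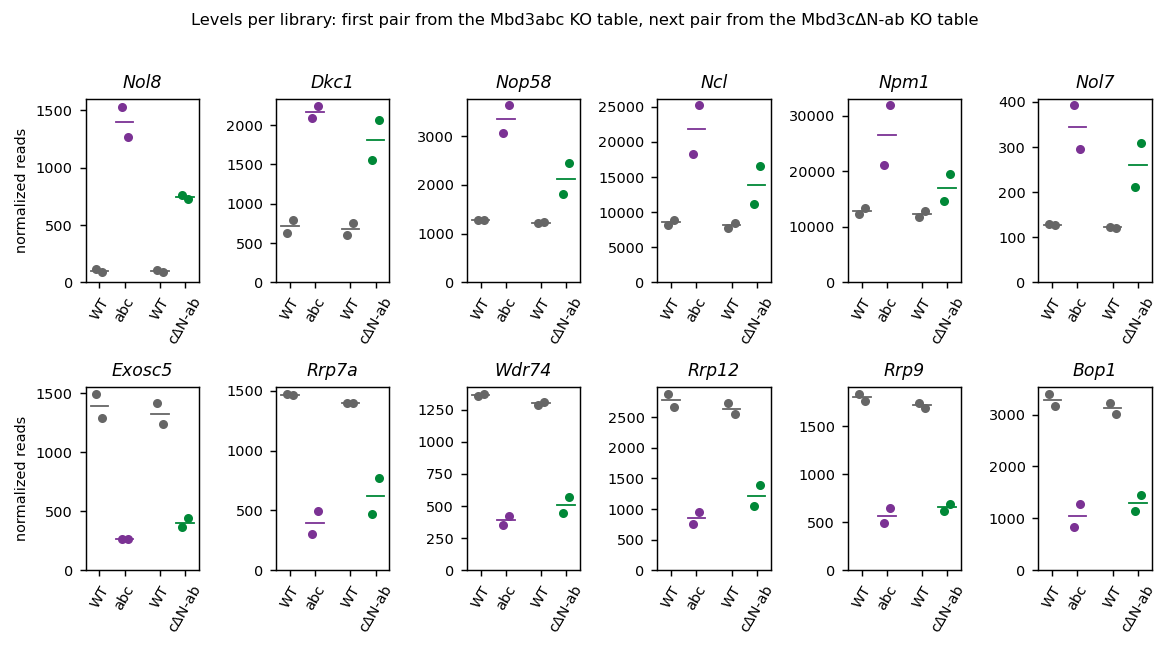
Normalized reads per library for 6 members that rose (top row) and 6 that fell (bottom row); in each panel the first WT and mutant pair is from the Mbd3abc KO table, the next from the Mbd3cΔN-ab KO table, lines are means of 2 libraries, and vertical scales start at 0. Nol8 goes from 102 to 1397 on average in Mbd3abc KO and Exosc5 from 1393 to 266.

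Of the small subunit processome, which folds and cleaves the precursor of the small subunit, 16 members were called in Mbd3abc KO, 6 higher and 10 lower, and 12 in Mbd3cΔN-ab KO, 2 higher and 10 lower. RefSeq names 32 matching genes in this role, and 52.1% and 41.5% of all genes tested were called in these mutants. Median log2 ratios were -0.81 and -0.73. Rrp7a, a processome protein (chromosome 15, 83115846 to 83122801, minus strand), fell most in Mbd3abc KO. It went from 1470 and 1461 normalized reads to 300 and 494, 3.69-fold lower, and from 1395 and 1396 to 473 and 770 in Mbd3cΔN-ab KO, 2.25-fold lower. WT libraries were nearly equal, while the mutant libraries differed more than 1.5-fold within each pair. Rrp12, an export and maturation factor of pre-ribosomes, fell 3.26-fold in Mbd3abc KO, from 2883 and 2665 to 755 and 946. In Mbd3cΔN-ab KO it fell 2.16-fold, from 2737 and 2547 to 1050 and 1393. Rrp9, the U3 snoRNP protein, fell 3.17-fold, from 1837 and 1763 to 489 and 647, and 2.62-fold in Mbd3cΔN-ab KO, from 1743 and 1684 to 616 and 691. It was the largest fall of a processome member in the latter mutant.

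The large processome proteins Heatr1, Nol6 and Utp20 had smaller fold changes than Rrp7a, Rrp12 and Rrp9. Heatr1, the Utp10 homologue, fell 2.01-fold in Mbd3abc KO, from 7198 and 7657 to 3235 and 4160, and 1.70-fold in Mbd3cΔN-ab KO. Nol6 fell 2.21-fold, from 4724 and 4570 to 1840 and 2363, and 1.90-fold. Utp20 fell 1.27-fold, from 4138 and 4496 to 3437 and 3378, and 1.23-fold with an adjusted p of 0.0484, a call that limma refits lost in both mutants. The other members that fell in both were Nop9, Imp4, Nat10 and Tsr3, by 1.60-fold to 2.24-fold in Mbd3abc KO. The 6 that rose in Mbd3abc KO, Nol11, Utp3, Nol10, Nop14, Utp23 and Pno1, did so by 1.28-fold to 1.54-fold, less than every member that fell in this role other than Utp20. Nol10 and Nol11 were also higher in Mbd3cΔN-ab KO, at 1.46-fold and 1.19-fold. Limma, edgeR and DESeq2 refits did not call Nol11 in Mbd3cΔN-ab KO. In Mbd3abc KO a DESeq2 refit did not call Nol11, Utp3 or Utp23. Rrp36 was listed in Mbd3cΔN-ab KO with 381 and 306 normalized reads in WT and 238 and 250 in the mutant, and its adjusted p of 0.0504 lay just outside the threshold.

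Among 13 called factors of large subunit assembly in Mbd3abc KO, 4 were higher and 9 lower, and of 10 in Mbd3cΔN-ab KO 2 were higher and 8 lower. This role has 19 matching RefSeq genes, and the shares called over all genes tested were 52.1% and 41.5%. Median log2 ratios were -0.76 and -0.59. The 3 proteins of the PeBoW complex, which is needed to process the large subunit RNAs, all fell. Bop1 (chromosome 15, 76452996 to 76477269, minus strand) went from 3398 and 3159 normalized reads to 826 and 1278 in Mbd3abc KO, 3.12-fold lower. In Mbd3cΔN-ab KO it went from 3225 and 3019 to 1138 and 1447, 2.42-fold lower. Pes1 fell 2.33-fold, from 3732 and 3620 to 1332 and 1822, and 1.80-fold in Mbd3cΔN-ab KO. Wdr12 fell 1.67-fold, from 905 and 998 to 543 and 593, and 1.48-fold. Bop1 and Pes1 kept their calls in all refits of both tables and without any 1 library, and Wdr12 did not.

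Wdr74, an assembly factor of the large subunit (chromosome 19, 8735839 to 8740624), fell 3.49-fold in Mbd3abc KO, from 1352 and 1373 to 356 and 425, and 2.56-fold in Mbd3cΔN-ab KO, from 1283 and 1312 to 443 and 569. Nop2, a methyltransferase of the large subunit RNA, fell 1.83-fold, from 3495 and 3320 to 1813 and 1910, and 1.53-fold. Nol9, a polynucleotide kinase, fell 1.77-fold and 1.47-fold. Nol12, Rrp1 and Rrp1b also fell in Mbd3abc KO, by 1.61-fold to 2.30-fold. Rrp1b, a paralog of Rrp1 that can share its reads, was not listed for Mbd3cΔN-ab KO. The nucleolar GTPases Gnl2 and Gnl3 rose in Mbd3abc KO. Gnl3, nucleostemin, which is known for its high level in stem cells, went from 1000 and 1006 to 1591 and 2033, 1.81-fold, and Gnl2 from 727 and 656 to 1082 and 1133, 1.60-fold. In Mbd3cΔN-ab KO Gnl2 rose 1.41-fold. Nip7, also counted in this role, rose 1.44-fold in Mbd3abc KO, from 1483 and 1523 to 2015 and 2305 (DESeq2 adjusted p = 0.000412).

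Nol8, a nucleolar protein with an RNA-binding domain, listed with large subunit assembly (chromosome 13, 49653078 to 49679016, plus strand), showed the largest change of all members. In Mbd3abc KO it had 113 and 90.5 normalized reads in WT and 1524 and 1271 in the mutant, a 13.7-fold rise, with a deposited log2 fold change of 3.70 ± 0.22 (SE) and a DESeq2 adjusted p of 4.78e-62. In the Mbd3cΔN-ab KO table it had 108 and 86.5 in WT and 760 and 730 in the mutant, 7.68-fold higher (2.86 ± 0.19 SE, adjusted p = 6.12e-48). The groups were far apart in both tables. Its WT level per length, 22.0 normalized reads per kilobase, was the lowest of all members in the Mbd3abc KO table. The tables counted Nol8 on different annotated transcripts, of 4627 and 4810 bases.

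Of the RNA exosome, the ribonuclease complex that trims ribosomal precursors and degrades nuclear RNA, 2 members were higher and 4 lower in Mbd3abc KO, and 1 was higher and 6 lower in Mbd3cΔN-ab KO. These are out of 10 matching RefSeq genes, where 52.1% and 41.5% of all genes tested were called. Exosc5, a subunit of its ring (chromosome 7, 25659153 to 25668032, plus strand), had the largest fall of all members in both mutants. It went from 1492 and 1294 normalized reads to 266 and 265 in Mbd3abc KO, 5.25-fold lower (deposited log2 fold change -2.36 ± 0.16 SE, DESeq2 adjusted p = 3.57e-48). In Mbd3cΔN-ab KO it went from 1416 and 1237 to 365 and 445, 3.28-fold lower (-1.66 ± 0.18 SE, adjusted p = 1.69e-17). The mutant libraries lay close together, well below WT. Exosc4, another ring subunit, fell 2.98-fold, from 480 and 471 to 140 and 179, and 2.29-fold, from 456 and 450 to 162 and 234.

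The nuclease subunit Exosc10 fell less, 1.5-fold in Mbd3abc KO, from 1699 and 1672 to 1155 and 1096, and 1.38-fold in Mbd3cΔN-ab KO. Exosc7 fell 1.49-fold and 1.42-fold. Exosc2 and Exosc6 were called in Mbd3cΔN-ab KO, 1.40-fold and 1.49-fold lower. A DESeq2 refit did not call Exosc2, Exosc6 or Exosc7 there. Exosc6 overlaps Aars on the same strand, so its reads cannot be told apart from those of Aars. Exosc8 rose, 1.33-fold in Mbd3abc KO, from 463 and 430 to 558 and 634, and 1.49-fold in Mbd3cΔN-ab KO, from 440 and 411 to 618 and 651. Exosc9 rose 1.40-fold in Mbd3abc KO. Neither Exosc8 nor Exosc9 was called in edgeR and DESeq2 refits of Mbd3abc KO, while Exosc8 kept its call in those of Mbd3cΔN-ab KO. By the authors' test, subunits of the same ring had calls in both directions.

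The called Pop subunits of RNase P, which matures transfer RNA, and RNase MRP, which cuts the ribosomal precursor, were lower, 3 in Mbd3abc KO and 4 in Mbd3cΔN-ab KO. RefSeq names 4 of them, and 24.9% and 20.4% of all genes tested were called lower in these mutants. Pop1, the large scaffold subunit, fell from 1256 and 1143 normalized reads to 672 and 900 in Mbd3abc KO, 1.53-fold, and from 1192 and 1092 to 479 and 658 in Mbd3cΔN-ab KO, 2.01-fold. Pop7 fell from 167 and 195 to 88.9 and 86.8, 2.06-fold, and from 159 and 186 to 81.8 and 75.4, 2.20-fold. It lies inside Epo on the same strand, which leaves its reads uncertain. Pop5 fell 1.54-fold and 1.61-fold, and Pop4 fell 1.30-fold in Mbd3cΔN-ab KO, a call not made by limma or edgeR. Subunits of the same enzymes outside the symbol rule, named after their values were seen, went both ways. Rpp30 rose from 69.5 and 101.1 normalized reads to 191 and 207 in Mbd3abc KO, 2.33-fold (DESeq2 adjusted p = 0.000101), and 1.79-fold in Mbd3cΔN-ab KO (adjusted p = 0.0466). Rpp21 and Rpp25 fell 2.24-fold and 3.15-fold in Mbd3abc KO, and 1.73-fold and 2.12-fold in Mbd3cΔN-ab KO.

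**Figure D3:**
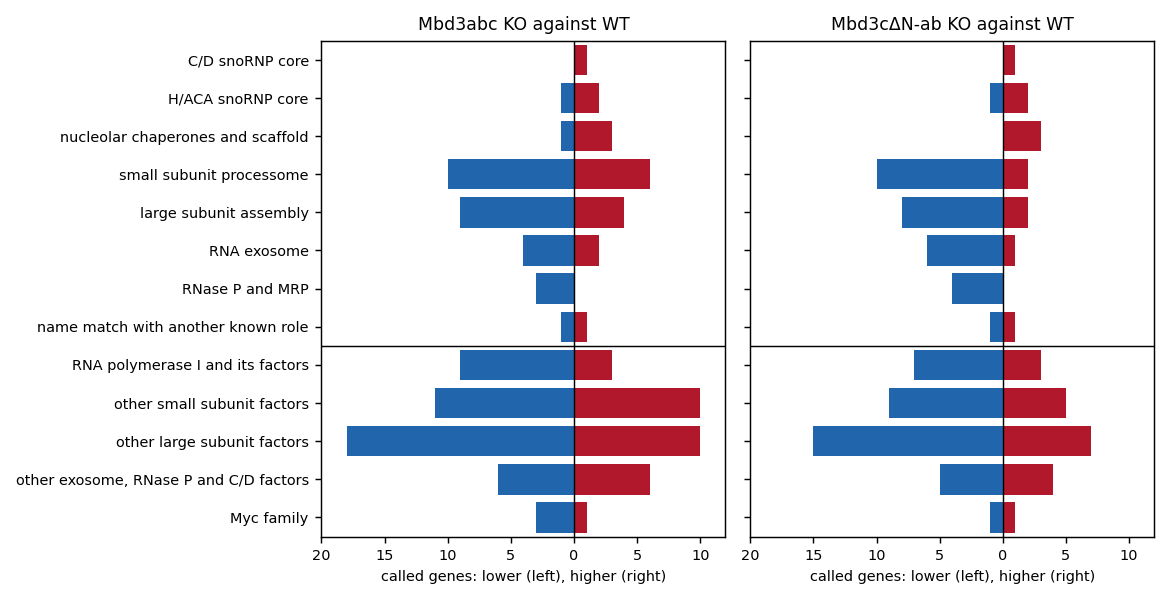
Numbers of called genes lower (blue, to the left) and higher (red, to the right) than WT in each role, for Mbd3abc KO and Mbd3cΔN-ab KO. Members are above the line and other genes of the pathway below it; the Pop genes of RNase P and MRP are lower in both panels, and RNA polymerase I genes are 3 higher and 9 lower in Mbd3abc KO.

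Mbd3ab KO had 2 called members, 2.44% of the RefSeq genes, where 3.35% of all genes tested were called, 2.05% higher and 1.30% lower. Utp14a, a processome protein (chromosome X, 48256934 to 48282449), fell from 987 and 990 normalized reads to 593 and 607, 1.65-fold, with a deposited log2 fold change of -0.69 ± 0.17 (SE) and a DESeq2 adjusted p of 0.00504. It has a near copy, Utp14b, that can share reads, and it was not listed for the other mutants. Nol4l, which shares the Nol name but was placed outside the ribosome assembly roles, rose from 139 and 126 to 240 and 280, 1.96-fold (0.88 ± 0.24 SE, adjusted p = 0.0141). In Mbd3abc KO Nol4l went from 162 and 145 to 506 and 344, 2.77-fold, and in Mbd3cΔN-ab KO from 154 and 139 to 383 and 269, 2.23-fold. A limma refit of the listed Mbd3ab KO genes called neither member, with adjusted p = 0.128 for Utp14a and 0.147 for Nol4l, and it called neither when any 1 library was left out. Gnl1, a GTPase placed outside those roles too, fell 2.42-fold in Mbd3abc KO, from 1461 and 1564 to 573 and 679, and 2.04-fold in Mbd3cΔN-ab KO. No member was called in Mbd3c KO by the authors' DESeq2 test, where 0.353% of all genes tested were, 0.316% higher and 0.0372% lower. An unadjusted p and the calls of other tools cannot be given for members there, because the table holds none of them.

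Other genes of the pathway, from a list of 116 that does not overlap the members, were called in Mbd3abc KO in 77 cases, 30 higher and 47 lower, and in Mbd3cΔN-ab KO in 57 cases, 20 higher and 37 lower. Over all genes tested, 52.1% were called in Mbd3abc KO and 41.5% in Mbd3cΔN-ab KO. Of 19 genes of RNA polymerase I and its factors 3 were higher and 9 lower in Mbd3abc KO, and 3 and 7 in Mbd3cΔN-ab KO. Polr1b, the second largest subunit, went from 3591 and 3503 normalized reads to 797 and 1149 in Mbd3abc KO, 3.65-fold lower, and fell 2.64-fold in Mbd3cΔN-ab KO, and Polr1a, the largest subunit, fell 3.01-fold and 2.12-fold. Both were named after their values were seen. Twistnb, a smaller subunit of the same polymerase, rose from 205 and 198 to 682 and 767, 3.60-fold, and 2.86-fold in Mbd3cΔN-ab KO.

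Over all genes tested, 27.1% were called higher and 24.9% lower in Mbd3abc KO, and 21.1% and 20.4% in Mbd3cΔN-ab KO. Of 27 other small subunit factors 10 were higher and 11 lower in Mbd3abc KO and 5 and 9 in Mbd3cΔN-ab KO. Tbl3, the Utp13 homologue, fell 3.96-fold and 2.88-fold, while Mphosph10, a U3 snoRNP protein, rose 3.58-fold and 2.24-fold. Of 43 other large subunit factors 10 were higher and 18 lower, then 7 and 15. Nle1, an assembly factor of the large subunit, fell from 1061 and 1009 to 73.5 and 208 in Mbd3abc KO, 7.35-fold, and 4.28-fold in Mbd3cΔN-ab KO. Ddx10, an RNA helicase counted in this list without a check of its subunit, rose 3.53-fold and 2.54-fold. Of 23 other exosome, RNase P and C/D factors 6 were higher and 6 lower, then 4 and 5, with Rpp25l, an RNase P subunit relative, 3.76-fold lower in Mbd3abc KO.

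Of 4 Myc family genes 1 was higher and 3 were lower in Mbd3abc KO, and 1 and 1 were in Mbd3cΔN-ab KO. The shares over all genes tested were 27.1% and 24.9%, then 21.1% and 20.4%. Mycn, the family member best known in early embryonic cells, fell from 2528 and 2294 normalized reads to 647 and 1409 in Mbd3abc KO, 2.35-fold, and from 2399 and 2192 to 614 and 924 in Mbd3cΔN-ab KO, 2.99-fold. In Mbd3ab KO Mycn fell from 2169 and 1993 to 763 and 1087, 2.25-fold, with a DESeq2 adjusted p of 0.000383. It was the 1 gene of the 116 called there, where 3.35% of all genes tested were called. Myc fell 2.43-fold in Mbd3abc KO, from 304 and 202 to 122 and 86.8, and Mycl fell 1.58-fold. Max, the shared binding partner, rose 1.34-fold in Mbd3abc KO and 1.36-fold in Mbd3cΔN-ab KO. The part of these genes in the members' levels was not tested.

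The direction of the members followed the GC content of their transcripts, as it did for all called genes. The median GC content was 44.7% for the 19 members higher in Mbd3abc KO and 54.7% for the 29 lower, beside 44.9% and 55.2% for all called genes. In Mbd3cΔN-ab KO the medians were 44.1% and 54.8% for members, beside 44.1% and 55.7%. The rank correlation of GC content with log2 ratio was -0.74 over 48 members and -0.66 over 8105 called genes in Mbd3abc KO, and -0.68 over 42 members and -0.73 over 5973 called genes in Mbd3cΔN-ab KO. Genes are not independent replicates, and all share the same libraries. With called genes of Mbd3abc KO in 5 equal classes from low to high GC, 98.4%, 86.1%, 45.0%, 20.7% and 10.4% were higher, and the members were 6 higher and 0 lower, 8 and 4, 3 and 5, 1 and 13, and 1 and 7. The members that went against their class in the top 2 classes were Nol4l and Gar1. In the second lowest class Heatr1, Imp4, Wdr12 and Utp20 were lower. Those 4 were also the lower members of that class in Mbd3cΔN-ab KO, where 92.9% of all its called genes were higher. The part of GC content in the members' changes was not tested.

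**Figure D4:**
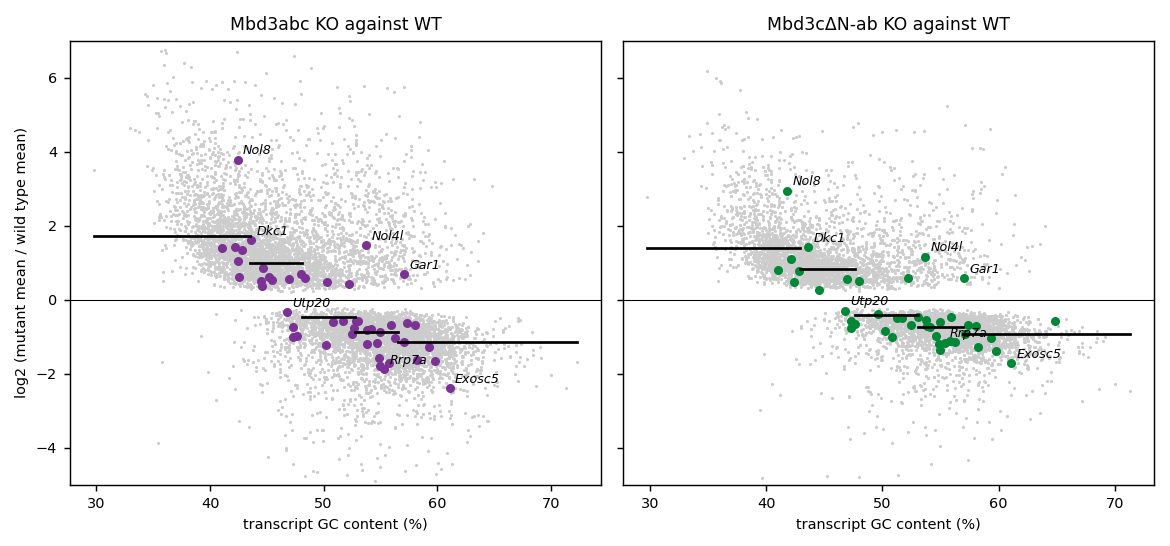
Log2 ratio of group means against transcript GC content for called members (coloured) and all called genes (grey) within the range drawn; horizontal lines are medians of all called genes in 5 equal GC classes. Members fall from upper left to lower right among the grey points, with median GC contents of 44.7% for the higher and 54.7% for the lower members of Mbd3abc KO.

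Members that host small nucleolar RNA genes were all called higher in these tables. Dkc1, Gnl3, Ncl and Nop58 carry annotated snoRNA genes on their own strand within their bounds: 1 in Dkc1, 3 in Gnl3 (Snord19 and Snord69 among them), 3 in Ncl (Snora75 and Snord82 among them) and 4 in Nop58 (Snord11 and Snord70 among them). They were 4 of 19 higher members in Mbd3abc KO (21.1%) and 0 of 29 lower ones, while 2.10% of all higher and 1.62% of all lower called genes held one. In Mbd3cΔN-ab KO they were 3 of 12 (25.0%) and 0 of 30, beside 2.29% and 1.60%. This count was made with the direction of the members known, and no test was run on it.

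Whether members listed in both tables differed between Mbd3abc KO and Mbd3cΔN-ab KO was tested directly with edgeR's quasi-likelihood test on recovered reads. The test covered 5449 genes with equal WT reads. The 9 members called only in Mbd3abc KO and the 3 called only in Mbd3cΔN-ab KO could not enter. Genes were listed for differing from WT in these same libraries, so the spread estimated from them may be too small. Of the 39 members in the contrast 2 were called at an adjusted p under 0.05 (5.13%), while 6.24% of all 5449 genes were, 2.83% with Mbd3abc KO higher and 3.41% with it lower. Exosc5 was 1.66-fold higher in Mbd3cΔN-ab KO, with a log2 difference of -0.73 ± 0.15 (SE) for Mbd3abc KO over Mbd3cΔN-ab KO and an edgeR adjusted p of 0.0363. Nol8 was 1.72-fold higher in Mbd3abc KO, at 0.79 ± 0.16 (SE) and adjusted p = 0.0377, with the different transcripts named above. Rrp12, Nop58 and Wdr74 followed without passing, at adjusted p = 0.0542, 0.0704 and 0.0828. Their log2 differences were -0.64 ± 0.16, 0.54 ± 0.15 and -0.50 ± 0.16 (SE). In all, 12 members (30.8%) had an unadjusted p under 0.05, beside 1779 of all 5449 genes (32.6%).

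For 24 of the 27 members that were lower than WT in these tables the fitted level was lower in Mbd3abc KO than in Mbd3cΔN-ab KO (88.9%), and for 10 of the 12 higher ones it was higher (83.3%). Over all genes the shares were 92.9% of 2630 and 86.3% of 2805, so the members' shares were near those of all genes. The 3 exceptions among the lower members were the RNase P and MRP subunits Pop1, Pop5 and Pop7, named after their values were seen, and for Pop1 the log2 difference was 0.34 ± 0.19 (SE) with an unadjusted edgeR p of 0.102. With only the 2 mutant groups fitted, Exosc5 and Nol8 were not called (edgeR adjusted p = 0.129 and 0.0939). In that fit 10 of all 5449 genes were called. Neither of the 2 calls stood without either WT library, the first Mbd3abc KO library or the second Mbd3cΔN-ab KO library. Calls among all genes fell as well in those fits, and without the second Mbd3abc KO library they did not.

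**Figure D5:**
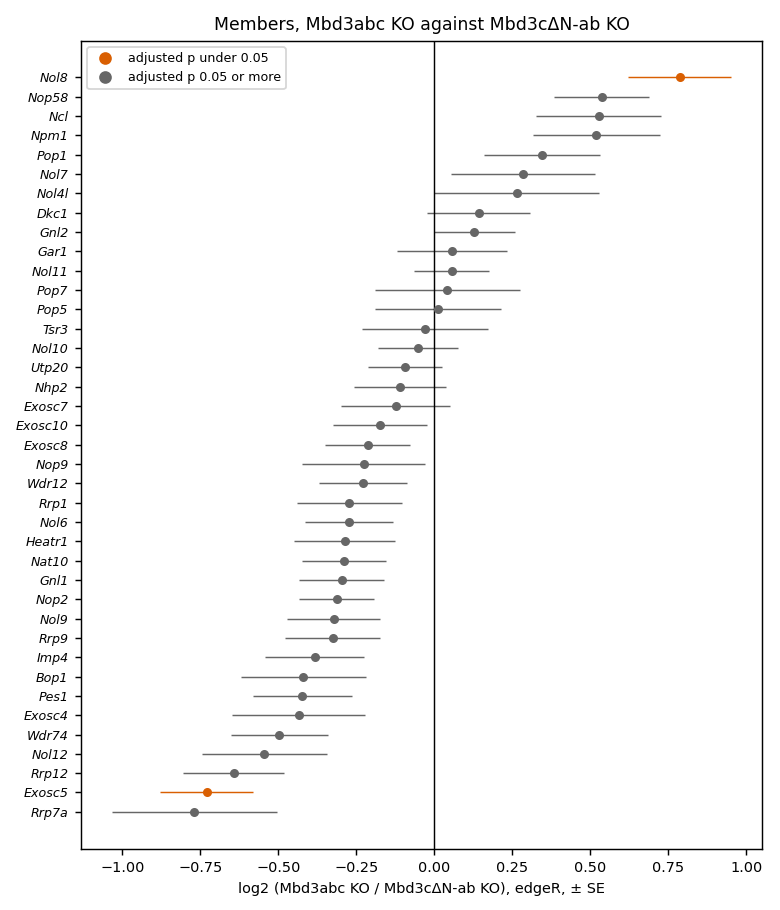
Fitted log2 difference of Mbd3abc KO over Mbd3cΔN-ab KO with its SE from edgeR for the 39 members in both tables, ordered by size. Orange points, Nol8 at 0.79 and Exosc5 at -0.73, have an adjusted p under 0.05; the other members are grey.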

How the data were processed

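Strand-specific libraries were made from rRNA-depleted total RNA and sequenced, per the labels' protocols. TopHat2, HOMER, DESeq2 and the build mm10 are named in the submitters' processing notes, with no versions, and reads on exons were counted by strand with HOMER, 1 transcript kept per gene, per the file headers. The authors deposited 4 tables, each of 1 mutant against WT, that list called genes. Their library columns hold a deposited signal, reads scaled per library by the authors. The other deposited columns are a log2 fold change with its SE (mutant over WT, shrunken by DESeq2), a p-value with its adjusted value, and a score, the authors' test statistic, which was not used.

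The members, roles and gene lists were chosen with earlier results of these data known. Levels were brought to the scale of the deposited mean level, from its linear relation to the columns, and are called normalized reads; values of different tables are not comparable. A fold is the plain ratio of the 2 group means. The number of genes tested was recovered from p and adjusted p: 13201 in Mbd3ab KO, 10759 in Mbd3c KO, 15622 in Mbd3abc KO and 14429 in Mbd3cΔN-ab KO. A gene was called where the deposited adjusted p was under 0.05. In the tables of Mbd3abc KO and Mbd3cΔN-ab KO every value (100% within 0.1) was a whole multiple of a step, so reads were recovered. The contrast of these mutants used edgeR 4.0.16 with TMM scaling, fitted with WT on 5449 of the 5503 genes in both tables, Benjamini-Hochberg adjusted. Alternatives were edgeR, DESeq2 1.42.0 and limma 3.58.1 (R 4.3.3) refits of the listed genes, a pseudocount of 1 or 10, thresholds, and each library left out. GC content and snoRNA genes came from GENCODE M21, with GC matched for 99.7% of called genes. Named were members listed in Mbd3ab KO or Mbd3c KO, the 8 largest rises and 8 largest falls in each long table, the 3 most abundant of each role, the 5 smallest adjusted p of the contrast, 3 pathway extremes each way and the Myc family; other members are given because all were to be accounted for.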

Additional observations from a re-analysis of the deposited data

Results flagged for a closer look

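Exosc5 differed between Mbd3abc KO and Mbd3cΔN-ab KO by the direct test of 1 mutant against the other. Its fitted level was lower in Mbd3abc KO by a log2 difference of -0.73 ± 0.15 (SE, edgeR adjusted p = 0.0363), on top of falls against WT of 5.25-fold and 3.28-fold. Nol8 differed in the other direction, 0.79 ± 0.16 (SE, edgeR adjusted p = 0.0377), with rises against WT of 13.7-fold and 7.68-fold in tables that counted it on different transcripts. In both genes the 2 libraries of each mutant did not overlap those of the other. The same held for Rrp12, Nop58 and Wdr74, which were not called, and the share over all genes was not counted. A DESeq2 fit of the same reads called both genes, at adjusted p = 0.00593 for Exosc5 and 0.00226 for Nol8. That fit called 696 of all 5449 genes, against 340 in the main edgeR fit. With only the 2 mutant groups fitted, edgeR called neither (adjusted p = 0.129 and 0.0939). Without 1 library the edgeR log2 difference ranged from -0.83 to -0.60 for Exosc5 and from 0.62 to 0.93 for Nol8. Both calls were lost in several of those fits, as given above.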

How the results depend on the processing

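No paired analysis was possible because the columns carry no replicate numbers. For Mbd3ab KO (1 member higher and 1 lower) an adjusted p under 0.01 left 0 higher, genes above the median level left 0 higher, a change of at least 2-fold left 0 and 0, limma with a pseudocount of 1 or of 10 called 0 and 0 (both members had an unadjusted p under 0.05), and limma without any 1 library, chosen after seeing the data, called 0 and 0. For Mbd3abc KO (19 and 29) a change of at least 2-fold left 7 and 14, and leaving out 1 library in DESeq2 refits gave 8 to 15 higher and 16 to 26 lower. For Mbd3cΔN-ab KO (12 and 30) these were 4 and 10, 2 to 8 and 11 to 24. Other thresholds, pseudocounts and tools kept these counts within 1.5-fold, with no sign change. Without 1 library, calls were lost among all listed genes as well. TMM scaling gave a direction only, with no new test, and no called member changed sign under it. In the tally of named genes below, an unchanged sign under TMM was counted as kept. TMM moved the median of all called genes by -0.029 and -0.013 (log2). For the contrast of the 2 mutants (1 higher and 1 lower in Mbd3abc KO) DESeq2 gave 2 and 2, beside 696 of all 5449 genes. Genes above the median level gave 2 and 2, beside 356 of all 2724. The 2 mutant groups alone gave 0 and 0, beside 10 of all 5449 genes, and an adjusted p under 0.01 gave 0 and 0. Leaving out 1 library changed which members were called, and 3 or 4 of the 39 changed sign without a mutant library. The cause was not tested. Of named genes under each alternative, 482 values kept their side of the threshold, 116 lost it, 4 gained it and 0 reversed. In Mbd3abc KO 8 of 19 higher and 15 of 29 lower members kept their calls in all refits and without any 1 library, and in Mbd3cΔN-ab KO 2 of 12 (Nol8 and Dkc1) and 10 of 30 did. How many of all called genes did so was not counted. A lone library was assumed to vary like the other group. Count refits and TMM scaling for Mbd3ab KO, and all refits for Mbd3c KO, were not run, since whole reads could not be recovered there or no member is listed. Members had as few as 68 reads in a library, and groups held 2 libraries; which of these limits a call was not tested.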
